A study of Mus musculus with 4 samples.

Results

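Costimulatory and inhibitory receptors of T cells were examined in double-positive thymocytes, developing T cells that display CD4 and CD8 together. The group held 10 genes, namely Ctla4, Btla, Pdcd1, Cd28, Icos, Lag3, Havcr2, Cd160, Cd5 and Cd6. Members were taken by gene symbol, from a list drawn up with earlier results of these arrays known. All 10 were on the array, with 16 of the 45037 probe sets, a probe set being a group of short probes that reads one stretch of a transcript. One set of cells came from C57BL/6 mice with a floxed Gfi1 gene and the hCD2-iCre recombinase (2 arrays, labelled hCD2-iCre x Gfi1fl/fl, here Cre fl/fl), and the other from wild-type C57BL/6 mice (2 arrays, labelled WT). The hCD2-iCre transgene expresses Cre from human CD2 control elements in lymphoid cells. The labels do not say that the WT mice carried it, so effects of the recombinase and of the floxed gene cannot be told apart. All cells were sorted by flow cytometry and untreated, and age was not given. Nothing in the labels says that replicates were separate animals. The p-values therefore cover the spread between these arrays, which may be technical, and 2 arrays a label limit the precision.

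T cell activation needs a signal through the antigen receptor and a second signal through CD28, which binds CD80 and CD86 on antigen-presenting cells. CTLA-4 binds the same ligands and counteracts CD28, while ICOS, a relative of both, is a costimulator of activated T cells. PD-1 (Pdcd1), BTLA, LAG-3, TIM-3 (Havcr2) and CD160 are receptors mostly studied for restraining activated or chronically stimulated T cells. CD5 and CD6 are scavenger receptor cysteine-rich proteins of thymocytes and T cells that tune antigen receptor signals, and CD5 is commonly read on thymocytes as a gauge of signal strength.

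Values are log2 RMA signals, so a difference of 1 is a factor of 2 in signal. The 4 arrays had medians of 3.53 to 3.55 and lower quartiles of 2.97 to 3.02, and signals at or under the median are close to the bottom of the scale. In such bulk samples a change in the share of cells with a transcript and a change in transcript per cell cannot be told apart. The Gfi1 probe set was brighter, not dimmer, on the arrays labelled Cre fl/fl, at 11.47 and 11.32 against 10.17 and 10.08 on the arrays labelled WT (difference 1.27 ± 0.13, SE; limma, adjusted p = 0.00976). Its place relative to the floxed exons is not given in the sources used here, and outside them it would check nothing, so every direction below is one between arrays carrying these labels. Double-positive markers were present under both labels: 11 measured markers averaged 10.93 and 10.75 on the Cre fl/fl arrays and 11.03 and 11.04 on the WT arrays. Of these only Dntt, the terminal deoxynucleotidyl transferase gene, was called, lower by -0.69 ± 0.10 (SE; limma, adjusted p = 0.0381), a call lost without Cre fl/fl replicate 2 or either WT array (adjusted p = 0.0645 to 0.260). The Cre fl/fl arrays stood apart from each other in 17 measured cell cycle genes, whose mean was 8.36 and 10.09 on the Cre fl/fl arrays and 9.09 and 9.61 on the WT arrays.

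Inhibitory receptors split into a pair that rose and others that did not pass the test. Ctla4 rose 14.5-fold and Btla 4.46-fold on the arrays labelled Cre fl/fl, and no receptor of the group was called lower. By its brightest probe set, 2 of 10 genes were called at an adjusted p under 0.05, where 1.01% of all 17097 named genes were called in either direction and 0.871% upward. Of the 16 probe sets 2 were called (0.766% of all probe sets). The promoters of these receptors are shown because their signals rose. They run from 250 bases before to 50 bases after the start site in RefSeq (build GRCm38.p6), read 5′ to 3′ on the plus strand, at chr1:60908775-60909074 for Ctla4 and chr16:45224087-45224386 for Btla. Capitals mark AAATC or its reverse complement GATTT, the central letters of the published GFI1 binding motif.
Ctla4 promoter: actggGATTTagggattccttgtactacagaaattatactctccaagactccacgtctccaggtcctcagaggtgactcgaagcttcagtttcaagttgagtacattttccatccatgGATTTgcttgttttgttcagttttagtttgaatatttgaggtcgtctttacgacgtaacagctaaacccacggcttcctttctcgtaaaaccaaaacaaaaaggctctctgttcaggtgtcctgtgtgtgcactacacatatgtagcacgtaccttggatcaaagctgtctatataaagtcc
Btla promoter: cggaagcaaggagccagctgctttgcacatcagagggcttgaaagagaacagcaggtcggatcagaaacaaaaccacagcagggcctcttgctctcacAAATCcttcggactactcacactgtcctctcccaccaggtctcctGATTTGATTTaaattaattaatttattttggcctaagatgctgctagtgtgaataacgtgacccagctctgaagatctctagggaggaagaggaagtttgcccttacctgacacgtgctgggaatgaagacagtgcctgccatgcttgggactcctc
The core occurred 2 times in the Ctla4 window and 3 times in the Btla window, where 2 of the matches lie end to end. It was found on either strand in 35.9% of 32851 mouse promoter windows of the same length, so a match is common. Windows of Pdcd1, Havcr2, Cd160 (2 windows) and Cd5 held 0 matches, and no window was listed for Cd28, Icos, Lag3 or Cd6. The forkhead motif GTAAACA or its reverse complement TGTTTAC, which FOXO proteins bind, had 0 matches in all 7 windows and was present in 3.65% of all windows. A match is a description of letters and not a measured binding site.

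**Figure D1:**
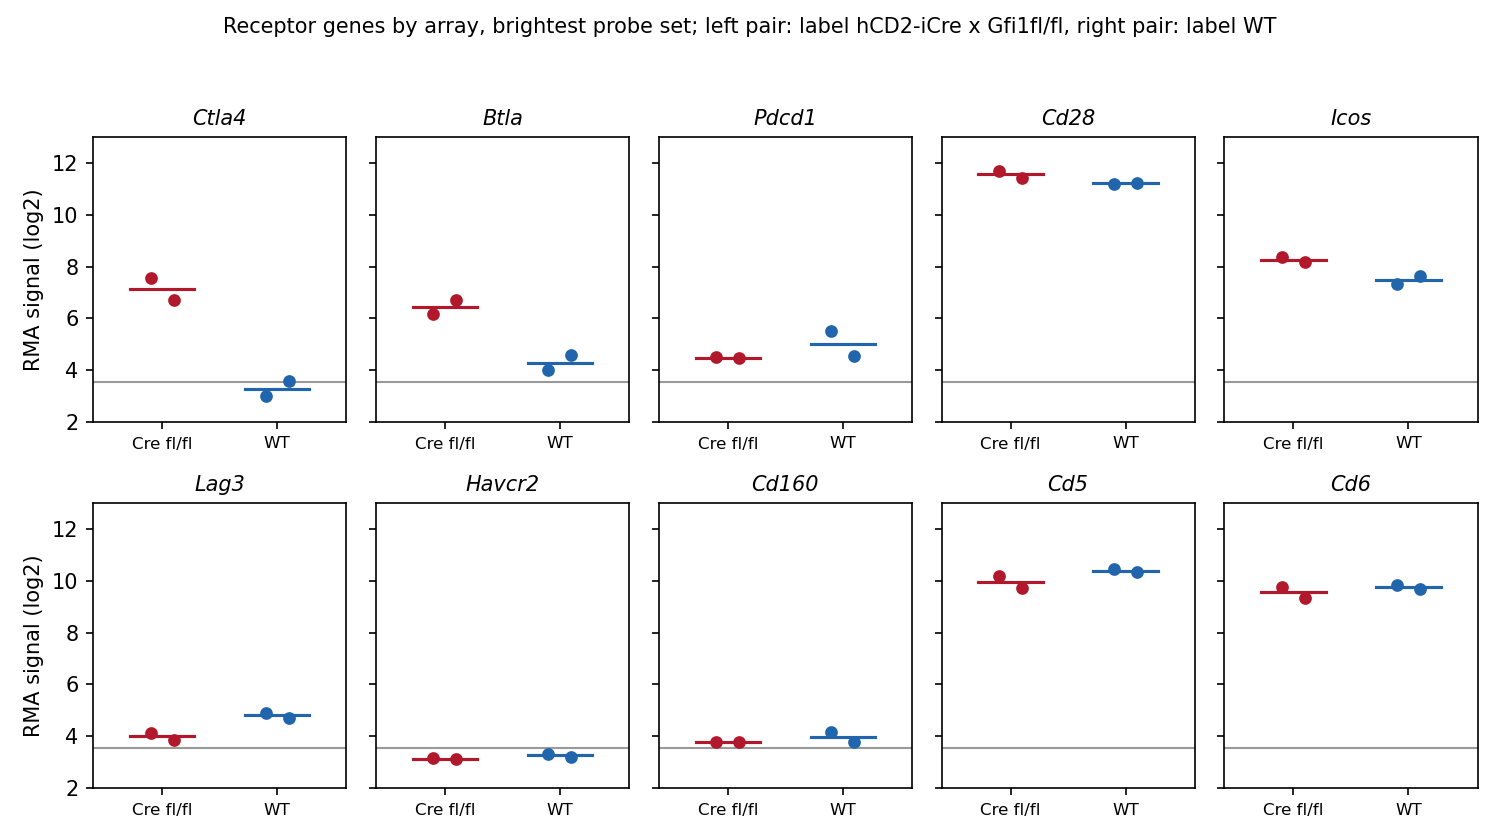
RMA signal (log2) of each receptor gene by its brightest probe set on each array, with 2 Cre fl/fl arrays at the left (red) and 2 WT arrays at the right (blue) of each panel, short lines at the means and a grey band at the range of the array medians (3.53 to 3.55). Ctla4 and Btla lay clearly higher on both Cre fl/fl arrays, and Havcr2 lay under the medians on all 4.

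Ctla4, the CD28 antagonist of activated and regulatory T cells, had signals of 7.56 and 6.71 on the Cre fl/fl arrays, against 2.99 and 3.56 on the WT arrays. Both WT values lay within 0.6 of the array medians, one below and one just above, and the groups were far apart. The means were 7.13 ± 0.60 and 3.28 ± 0.41 (SD, n = 2 each), a difference of 3.86 ± 0.35 (SE; limma, adjusted p = 0.00503; unadjusted 95% interval 3.03 to 4.69). This was the rise of rank 26 among 17097 named genes. Because the WT signal was near the bottom of the scale, the fold compares RMA signals, which need not track transcript amounts. Leaving out any 1 array kept the call, with differences from 3.44 to 4.28 and adjusted p from 0.00056 to 0.0278 (limma).

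Btla encodes an immunoglobulin-domain receptor that binds HVEM (Tnfrsf14) and recruits tyrosine phosphatases. Its signals were 6.18 and 6.71 on the Cre fl/fl arrays, against 4.01 and 4.57 on the WT arrays. Both groups spread by about the same amount, and all 4 values were above the array medians. The means were 6.45 ± 0.38 and 4.29 ± 0.39 (SD, n = 2 each), a difference of 2.16 ± 0.31 (SE; limma, adjusted p = 0.0318; unadjusted 95% interval 1.43 to 2.88). The call was lost without Cre fl/fl replicate 2 (difference 1.89, adjusted p = 0.0545), without WT replicate 1 (1.88, 0.158) and without WT replicate 2 (2.43, 0.0633), each with a lone array on one side whose spread is taken from the other label. It was also lost without the intensity trend in the prior variance (adjusted p = 0.101).

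Of the other inhibitory receptors, Lag3 and Pdcd1 had lower signals on the Cre fl/fl arrays without passing the test. Lag3, a CD4-like receptor for MHC class II, had 4.11 and 3.86 on the Cre fl/fl arrays, against 4.91 and 4.69 on the WT arrays. The groups did not overlap, and the difference was -0.81 ± 0.21 (SE; limma, adjusted p = 0.278; unadjusted 95% interval -1.32 to -0.30). Leaving out 1 array moved it between -0.94 and -0.69. Pdcd1, which encodes PD-1, had 4.49 and 4.45 on the Cre fl/fl arrays, against 5.52 and 4.53 on the WT arrays. Here the difference of -0.55 ± 0.34 (SE; limma, adjusted p = 0.832) rested on WT replicate 1, without which it was -0.06.

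Havcr2 and Cd160 stayed near the bottom of the scale. Havcr2, which encodes TIM-3, had 3.16 and 3.10 on the Cre fl/fl arrays, against 3.29 and 3.21 on the WT arrays, under the array medians on all 4, so a fall was not detectable there. Its difference was -0.12 ± 0.11 (SE; limma, adjusted p = 0.931). Cd160 encodes a glycolipid-anchored receptor that also binds HVEM, and its 4 probe sets differed by -0.20, 0.11, -0.03 and -0.07, with adjusted p of at least 0.908 (limma). They did not share a direction, and the brightest, with 3.78 and 3.78 on the Cre fl/fl arrays against 4.18 and 3.78 on the WT arrays, was high only on WT replicate 1. Without that array its difference was 0.003.

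**Figure D2:**
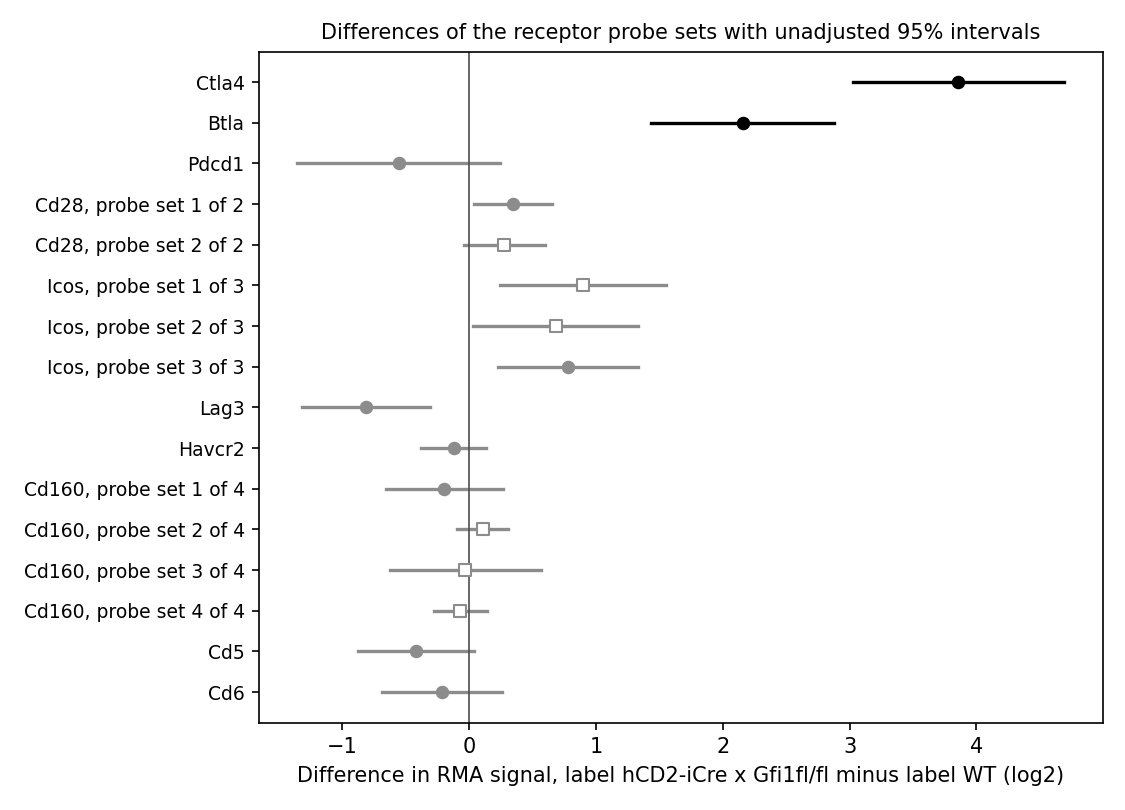
Difference in RMA signal (log2), Cre fl/fl label minus WT label, for all 16 receptor probe sets with unadjusted 95% intervals from limma; black marks calls at an adjusted p under 0.05, filled circles the brightest probe set of a gene and open squares its others. Ctla4 at 3.86 and Btla at 2.16 stand apart, all 5 probe sets of Cd28 and Icos lie above 0, and Lag3, Pdcd1, Cd5 and Cd6 lie below 0.

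The costimulatory receptors Cd28 and Icos had higher signals on both Cre fl/fl arrays, by small amounts that did not pass the test. Cd28, the main costimulatory receptor of naive T cells, had 11.70 and 11.41 on the Cre fl/fl arrays, against 11.19 and 11.23 on the WT arrays. Its difference was 0.35 ± 0.13 (SE; limma, adjusted p = 0.557; unadjusted 95% interval 0.04 to 0.66), and a second probe set gave 0.28 ± 0.14. The upper limit of this interval is a 1.58-fold rise. Icos had 8.37 and 8.16 on the Cre fl/fl arrays, against 7.34 and 7.63 on the WT arrays. Its 3 probe sets differed by 0.78 ± 0.23, 0.90 ± 0.28 and 0.68 ± 0.28 (SE), all without overlap of the groups and all short of the threshold (limma, adjusted p = 0.379, 0.401 and 0.615). These probe sets share a target and are not independent.

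Cd5 and Cd6, neighbouring genes on chromosome 19, had somewhat lower signals on the Cre fl/fl arrays and were not called. Cd5 had 10.20 and 9.72 on the Cre fl/fl arrays, against 10.44 and 10.32 on the WT arrays. The difference was -0.42 ± 0.19 (SE; limma, adjusted p = 0.706; unadjusted 95% interval -0.88 to 0.04), and -0.18 without Cre fl/fl replicate 2. Cd6, whose product binds ALCAM, had 9.76 and 9.34 on the Cre fl/fl arrays, against 9.85 and 9.68 on the WT arrays. These overlapped, and the difference of -0.21 ± 0.20 (SE; limma, adjusted p = 0.935) came from Cre fl/fl replicate 2, without which it was -0.003.

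Counted together, 4 receptor genes had differences above 0 and 6 below, with a median of -0.16, beside a median of -0.02 over all named genes. The median size of a difference, disregarding its sign, was 0.49 for the receptors and 0.11 for all named genes, many of which are dim. The labels did not overlap for 8 of 10 genes, 4 in each direction, where this held for 34.5% of all named genes, and for 12 of 16 probe sets, where this held for 34.7% of all probe sets. At an unadjusted p under 0.05 there were 5 of 10, adding Cd28, Icos and Lag3 to the called pair, against 1358 of 17097. An exact permutation test of 2 arrays against 2 cannot give a two-sided p below 0.333, so the calls rest on limma's pooled spread. With an ordinary t statistic 0 receptors were called and 1 of all probe sets. Within the Cre fl/fl label, 8 of 10 genes were higher on replicate 1 than on replicate 2, by 0.85 for Ctla4, while Btla was higher on replicate 2 by 0.54 and Cd160 was equal. The cell cycle genes ran the other way between these arrays, and their part in the receptors' spread was not tested.

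Cd28, Ctla4 and Icos lie side by side on mouse chromosome 1, in that order in RefSeq. The 3 nearest protein-coding genes on each side of every receptor were therefore looked up, after the receptors' values were known. Of 33 such neighbours with a named probe set, 2 were called upward and 0 downward, and both flank this cluster. Over all named genes 0.871% were called upward. Pard3b, a cell polarity gene next to Icos, had 5.83 and 5.92 on the Cre fl/fl arrays, against 3.57 and 3.51 on the WT arrays (difference 2.34 ± 0.21, SE; limma, adjusted p = 0.00481). Of its other probe sets one differed by 0.94 (adjusted p = 0.126) and one, under the array medians, by -0.02. Raph1, which encodes a regulator of actin at the leading edge (lamellipodin) and lies next to Cd28, had 7.64 and 7.74 on the Cre fl/fl arrays, against 5.51 and 6.09 on the WT arrays. Both of its probe sets were called, at 1.89 ± 0.28 and 1.69 ± 0.26 (SE; limma, adjusted p = 0.0391 and 0.0467), but the call of the brighter was lost on leaving out any 1 of the 4 arrays (adjusted p = 0.0529 to 0.183). Thus along 5 consecutive genes, Raph1, Cd28, Ctla4, Icos and Pard3b, both Cre fl/fl arrays were above both WT arrays. Such upward separation held for 2740 of all 17097 named genes. The run was looked for around Ctla4, which was already called, and a regional effect was not tested. The next genes outward did not continue the run: Abi2 differed by 0.33 and Nrp2 by -0.10, with overlapping groups (limma, adjusted p = 0.930 and 0.980).

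**Figure D3:**
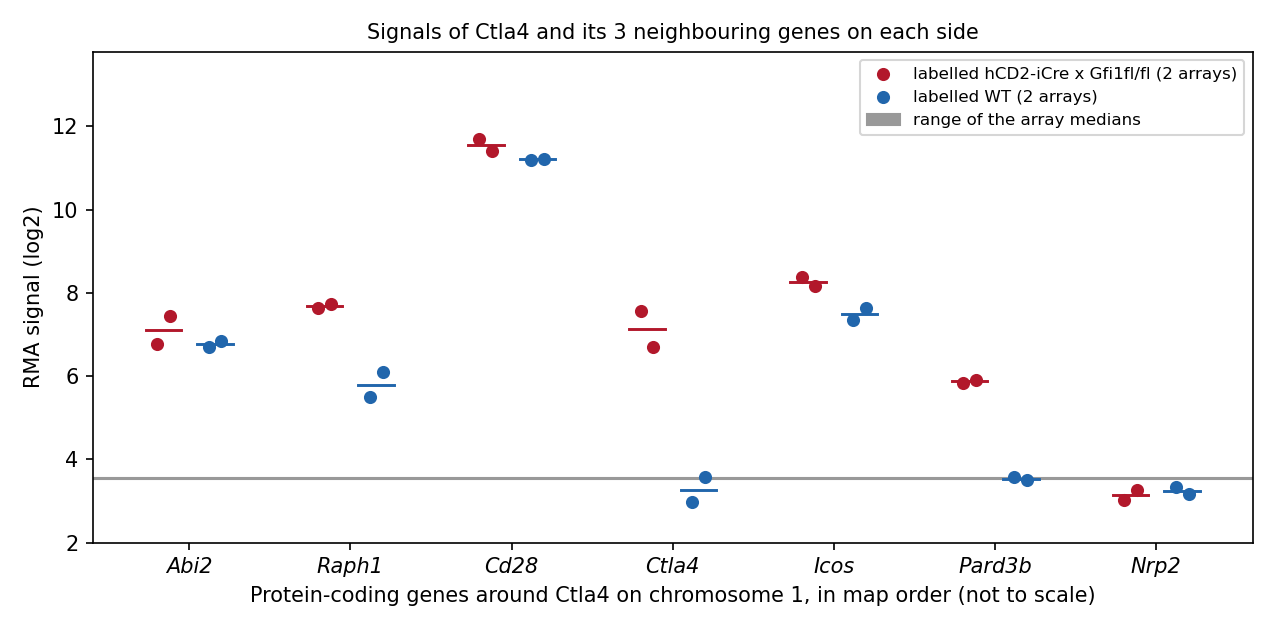
RMA signal (log2) of Ctla4 and the 3 protein-coding genes on each side, in map order, on each Cre fl/fl array (red, left) and WT array (blue, right), with means as short lines and the array medians as a grey band. The labels are separated from Raph1 to Pard3b, most at Ctla4 (3.86), and overlap at Abi2 and Nrp2.

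The genes whose centred signals followed Ctla4 most closely over the 4 arrays were Sgip1, Ly6c1 and Maf, with root mean square distances of 0.19, 0.21 and 0.22 on the log2 scale. Ly6c1, a lymphocyte surface antigen gene, differed by 3.86, Maf, a transcription factor of helper and regulatory programmes, by 3.96 and Sgip1 by 4.18. With 4 arrays and 1 contrast this likeness mostly says that the difference was of similar size. Averaged over all its probe sets, Sgip1 differed by 2.22.

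Ligands and signalling partners of the receptors showed no call. Of 15 measured ligands none passed (limma; 2 at an unadjusted p under 0.05, against 1358 of 17097 named genes), with a median difference of 0.02. The ordinary t statistic also gave 0, but with 1 call among all probe sets it could hardly have given another count for any list. Ceacam1, an adhesion gene whose product is a reported TIM-3 ligand, had 6.76 and 6.34 on the Cre fl/fl arrays, against 5.81 and 5.48 on the WT arrays. The difference was 0.91 ± 0.27 (SE; limma, adjusted p = 0.380), and 0.66 as the mean of its probe sets. Cd274, which encodes the PD-1 ligand PD-L1, had 6.58 and 6.80 on the Cre fl/fl arrays, against 5.85 and 6.02 on the WT arrays (0.75 ± 0.25, SE; limma, adjusted p = 0.449). They were the 2 largest differences of the list. The CD28 and CTLA-4 ligands Cd80 and Cd86 lay under the array medians on all 4 arrays. Tnfrsf14, the HVEM gene, differed by 0.02.

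Of 25 measured signalling partners none passed either (limma; 0 with the ordinary t statistic), with a median of -0.07. At an unadjusted p under 0.05 there were 4 of 25, against 1358 of 17097 named genes (limma). Ubash3a, a phosphatase-family gene that restrains antigen receptor signalling, had 5.99 and 6.21 on the Cre fl/fl arrays, against 7.24 and 7.38 on the WT arrays. This was the largest difference of the list at -1.21 ± 0.24 (SE; limma, adjusted p = 0.123). As the mean of its probe sets Ubash3a differed by -0.81 (limma, adjusted p = 0.346). Pik3cd, the lymphocyte phosphoinositide 3-kinase subunit used by CD28 and ICOS, differed by 0.54 ± 0.23 (SE; limma, adjusted p = 0.646), and by 0.07 as the mean of its probe sets. The phosphatases Ptpn6 and Ptpn11, which inhibitory receptors recruit, differed by -0.17 and -0.02.

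**Figure D4:**
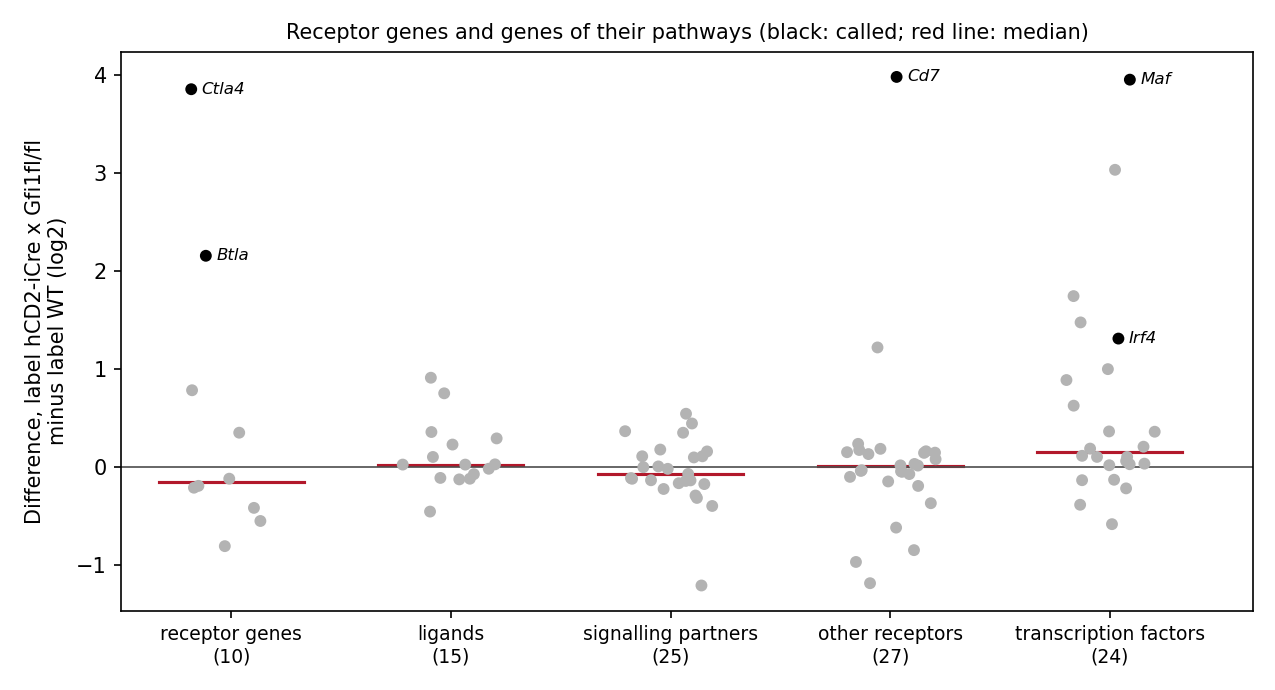
Differences in RMA signal (log2), Cre fl/fl label minus WT label, of the 10 receptor genes and of 4 gene lists, 1 point a gene by its brightest probe set, with calls in black and named and medians as red lines. Calls are few and all upward, and the medians of the lists lie between -0.07 and 0.15.

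Among 27 other costimulatory and inhibitory receptors measured, 1 was called upward and 0 downward (limma), with a median of 0.01. Upward calls made up 0.871% of all named genes. At an unadjusted p under 0.05 there were 5 of 27, against 1358 of 17097 named genes (limma). The called gene was Cd7, an immunoglobulin-family receptor of T and NK cells. It had 7.28 and 6.95 on the Cre fl/fl arrays, against 3.22 and 3.04 on the WT arrays. The difference of 3.98 ± 0.24 (SE; limma, adjusted p = 0.00118) was close in size to that of Ctla4, again from a WT signal at the bottom of the scale. The largest uncalled differences were those of Milr1 at 1.22 and Vsir at -1.19, both without overlap (limma, adjusted p = 0.112 and 0.113). Without Cre fl/fl replicate 1 the list had 3 calls, with Cd96 and Cd200 lower beside Cd7.

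Of 24 measured transcription factors linked to these receptors in activated, regulatory or exhausted T cells, 2 were called upward and 0 downward. Upward calls made up 0.871% of all named genes. At an unadjusted p under 0.05 there were 9 of 24, against 1358 of 17097 named genes (limma). The groups did not overlap for 14 of 24, where this held for 34.5% of all named genes. Differences lay above 0 for 19 and below for 5, with a median of 0.15. Maf had 7.42 and 6.23 on the Cre fl/fl arrays, against 2.83 and 2.92 on the WT arrays, a difference of 3.96 ± 0.38 (SE; limma, adjusted p = 0.00661) whose call was lost without the intensity trend (adjusted p = 0.0673). Irf4, which antigen receptor signals induce, had 4.53 and 4.23 on the Cre fl/fl arrays, against 3.23 and 2.91 on the WT arrays. Its difference was 1.31 ± 0.19 (SE; limma, adjusted p = 0.0370), a call lost without WT replicate 1 or 2 (adjusted p = 0.0803 and 0.198). The count fell to 1 without either WT array and reached 4 without Cre fl/fl replicate 2, with Jun and Id2 added. Both were close to the threshold with all arrays (differences 3.04 and 1.74; limma, adjusted p = 0.0598 and 0.0627). Of the 24, 5 lay under the array medians on all 4 arrays, among them the exhaustion-linked Eomes, Tbx21 and Tox2. Tox and Tcf7 had no named probe set and were not measured. Uncalled but without overlap, Nr4a1 differed by 0.62, Prdm1 and Nr4a3 by 0.36 each, Nfatc1 by -0.39 and Bcl6 by -0.59 (limma, adjusted p from 0.346 to 0.892).

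Markers of cells known for Ctla4 or Btla gave the following. Foxp3, the defining factor of regulatory T cells, a cell type with high CTLA-4, had 3.10 and 3.09 on the Cre fl/fl arrays, against 3.27 and 3.20 on the WT arrays, under the array medians on all 4. Of 10 measured regulatory T cell markers none was called (limma; 0 with the ordinary t statistic). At an unadjusted p under 0.05 there were 4 of 10, against 1358 of 17097 named genes (limma). Those 4 were all higher on both Cre fl/fl arrays, namely Capg by 1.63, Ikzf2 by 0.89, Nrp1 by 0.83 and Il2rb by 0.54 (limma, adjusted p from 0.208 to 0.498). Of the 10 markers, 6 differed above 0 and 4 below. The largest fall was that of Tnfrsf18, by -0.85 (limma, adjusted p = 0.682). It had 8.24 and 7.07 on the Cre fl/fl arrays, against 8.58 and 8.43 on the WT arrays. The summed linear signal of the 10 was 2436 and 2961 on the Cre fl/fl arrays and 1645 and 1821 on the WT arrays. Without Ikzf2 and Nrp1 it was 437 and 236 on the Cre fl/fl arrays and 470 and 429 on the WT arrays. Tnfrsf18 was the brightest gene in that reduced sum. Among 7 measured B cell markers, a cell type with high BTLA, 0 were called, 5 lay under the array medians throughout, and the summed signal was 226 and 133 on the Cre fl/fl arrays and 364 and 290 on the WT arrays. Cd79b alone carried that gap, since the other 6 summed to 56.3 and 55.2 on the Cre fl/fl arrays and 56.8 and 53.8 on the WT arrays. Of 11 measured myeloid and dendritic markers 0 were called, with sums of 123 and 129 on the Cre fl/fl arrays and 132 and 109 on the WT arrays. Some markers of other T cells and innate lymphocytes were called upward, as Ctla4 and Btla were. Of 8 measured genes of mature single-positive T cells, Klf2, Itgb7, H2-K1 and Gimap4 were called upward and 0 downward. Over all named genes 0.871% were called upward. H2-K1 was not called without WT replicate 2 or without the intensity trend (limma, adjusted p = 0.0683). As the mean of its probe sets it differed by 1.31 and was not called (limma, adjusted p = 0.0570). S1pr1 differed by 1.43, at the threshold (limma, adjusted p = 0.0501). Tnfrsf1a differed by -0.60 without overlap (limma, adjusted p = 0.637). The summed signal was 12683 and 13050 on the Cre fl/fl arrays, against 9276 and 8294 on the WT arrays. Ccr9, the brightest gene in that sum, differed by 0.18 and was not called. Among 14 measured genes of innate lymphoid, NK and gamma-delta T cells, 2 were called upward, where 0.871% of all named genes were. These were Il18r1 by 7.60 and Cd163l1 by 7.45 (limma, adjusted p = 0.000217 and 0.000315), and 12 were not called. The sum was 4198 and 3586 on the Cre fl/fl arrays, against 340 and 330 on the WT arrays. Without these 2 genes it was 374 and 282 on the Cre fl/fl arrays, against 323 and 307 on the WT arrays. Il17re, the brightest gene of that remainder, differed by -0.28. At an unadjusted p under 0.05 there were 6 of 14 (limma), against 1358 of 17097 named genes. They added Blk by 1.24, Prf1 by 1.01, Nkg7 by 0.99 and Klrd1 by 0.24, each higher on both Cre fl/fl arrays (limma, adjusted p from 0.265 to 0.595). Of the 14, 10 differed above 0 and 4 below. Sox13, Ncr1, Klrb1c, Klrd1, Klrk1, Gzmb and Xcl1 lay under the array medians on all 4. The sums without named genes were chosen after seeing the data. The part of such cells in the receptors' differences was not tested.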

How the data were processed

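Sorted cells gave total RNA, which was biotinylated with a 3' IVT kit for 1-colour Affymetrix arrays, per the labels' protocols. The deposited log2 signals were made by the authors with RMA; the submitters' processing notes name RMA and Expression Console 1.1 from Affymetrix. The array medians and quartiles were nearly equal, and no further normalization, filter or centring was applied. Probe sets were named from GEO's platform annotation: 28898 had 1 gene symbol, 551 had several and 15588 were not listed, and only the first were used as members. All 45037 probe sets were fitted with limma 3.58.1 under R 4.3.3 (lmFit and eBayes, intensity trend, no covariate, 2 residual and 5.05 prior degrees of freedom), with Benjamini-Hochberg adjustment over all of them, two-sided, at 0.05. Lists were counted by each gene's brightest probe set, the one with the highest mean over 4 arrays. Members, gene lists and the rule for named genes (all members; called list genes or, where none, the 2 largest; the 3 genes most like Ctla4) were chosen with earlier results of these data known. The test was checked on simulated data. The labels share replicate numbers without saying that a number marks an animal or day, so they were not treated as pairs. Alternatives are given in the closing section. Figures used matplotlib 3.10.9 in Python 3.11.15.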

Additional observations from a re-analysis of the deposited data

How the results depend on the processing

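Ctla4 kept its direction and its call in 14 of 15 alternatives (the exception being the ordinary t statistic; without the intensity trend it lay only just inside the threshold) and Btla in 10 of 15. The number of receptors called, 2 by genes and 2 by probe sets, was 1 of each without the intensity trend, 0 of each with an ordinary t statistic (adjusted p = 0.618 for Ctla4), and 1 to 2 of each on leaving out 1 array. It was 2 with a replicate block (272 of all probe sets called, against 345; the replicate numbers' deviations correlated at 0.30 over all probe sets, which with 2 numbers does not establish pairs). The block ended the call of Raph1 (adjusted p = 0.0608) and of Dntt (0.0529). Over all features the count was 205 without the trend, 1 with an ordinary t statistic, 190 with 1 probe set a gene, 157 with gene means, and 178 and 168 without WT replicate 1 and 2. Called transcription factors numbered 0 to 4 over the alternatives. Signs turned only for Cd160, on leaving out 1 array: its brightest probe set ranged from -0.39 to 0.00307, the others from -0.36 to 0.30 and from -0.15 to 0.0105. No value was had for Havcr2 where the dimmest 50% of probe sets were left out. RMA compresses low signals, and detection calls were not used here, so a fall of Havcr2, under the array medians throughout, was not detectable. The brightest Cd160 probe set lay a little above the medians, at 3.78 to 4.18. Whether a fall could show there was not tested.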
